A study of Homo sapiens with 6 samples.

Results

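Caveolae are small flask-shaped pits of the plasma membrane, and 6 genes that build and hold them were followed here in SKOV3 cells: CAV2, CAV1, CAVIN1, CAVIN3, EHD2 and PACSIN2. The members were chosen by gene symbol, as all probe sets that the platform annotation assigns to these 6 genes alone, which gave 15 of 54675 probe sets. The symbols were put together with the differences between the precursors already known, with CAV2 to be set against its 5 partner genes. Every difference of a member below is therefore a description of these arrays, and its adjusted p is given as a value from which nothing is read.

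SKOV3 is an established human ovarian cancer cell line, labelled as high grade serous. The cells carried either a miR21 precursor at 5 nM (3 arrays) or a negative control precursor whose dose is not stated (3 arrays), and RNA was taken 24 h after transfection. Both groups were transfected, untransfected cells were not analysed here, and every difference is miR21 against the control precursor. Nothing in the labels says whether replicate numbers 1, 2 and 3 are separate cultures, so p-values measure the spread between these arrays, which may be technical.

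In background knowledge, caveolin-1 (CAV1) oligomerises in the membrane and is needed for caveolae to form in non-muscle cells. Caveolin-2 (CAV2) forms hetero-oligomers with it and depends on it for its stability and its transport to the cell surface. Cavin-1 (CAVIN1) coats the caveolin scaffold and is likewise needed for the pit, cavin-3 (CAVIN3) joins that coat, EHD2 is an ATPase that holds the neck at the membrane, and PACSIN2 is an F-BAR protein that bends the membrane there. CAV1 and CAV2 lie next to each other on chromosome 7 and are known to be expressed together in many tissues.

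The molecule added to the cells gives rise to the mature miRNA below, shown because all comparisons turn on it. It is the RefSeq sequence on GRCh38.p14 (chr17:59841273-59841294, plus strand), with the seed, bases 2 to 8, in capitals.

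hsa-miR-21-5p: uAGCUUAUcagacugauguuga

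The members lie on 5 chromosomes. On GRCh38.p14, CAV2 spans 116499738 to 116508541 and CAV1 116525009 to 116561185 of chromosome 7, both on the plus strand. CAVIN3 lies on chromosome 11 (6318946 to 6320501), CAVIN1 on chromosome 17 (42402449 to 42423256), EHD2 on chromosome 19 (47713422 to 47743134) and PACSIN2 on chromosome 22 (42869766 to 43015149). The 250 bases before the first annotated start of CAV2 (chr7:116499488-116499737) and of CAV1 (chr7:116524759-116525008) are printed from RefSeq, since these neighbours differed in opposite directions. Capitals mark GGGCGG or its reverse complement, the core of the box that SP1-family factors bind.

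CAV2: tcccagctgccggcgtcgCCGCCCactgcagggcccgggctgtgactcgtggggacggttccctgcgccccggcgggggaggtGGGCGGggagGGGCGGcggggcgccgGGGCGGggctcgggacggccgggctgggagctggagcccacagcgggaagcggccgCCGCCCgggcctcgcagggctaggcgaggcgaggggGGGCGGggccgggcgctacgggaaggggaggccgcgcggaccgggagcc
CAV1: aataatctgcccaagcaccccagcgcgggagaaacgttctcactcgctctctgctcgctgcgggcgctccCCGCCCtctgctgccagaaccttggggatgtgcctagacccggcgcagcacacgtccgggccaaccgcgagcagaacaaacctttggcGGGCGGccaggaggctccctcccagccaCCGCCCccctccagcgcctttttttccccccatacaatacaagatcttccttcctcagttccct

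The CAV2 stretch held 6 such matches over both strands and the CAV1 stretch 3. At least 1 match stood in 42.6% of 35116 windows of the same length before annotated starts, and the EHD2 window held 1 and the PACSIN2 window 2. G and C made up 83.2% of the CAV2 window and 63.6% of the CAV1 window, against a median of 58% over all windows. Neither window held the TATA box (TATAAA), which stood in 10.7% of all windows on either strand. The same was true of the TEAD core (GGAATG), found in 11.9% of all windows. The AP-1 site (TGANTCA), in 6.57% of windows, and the sterol element (TCACNCCAC), in 0.883%, were also without a match in both. With no match of these other motifs in either window, the SP1 letters could overlap none of them. Promoters of CAVIN1 and CAVIN3 were not analysed here. The part of these motifs in the differences was not tested.

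The cells carried the markers of their epithelial label. All 5 epithelial genes (EPCAM, KRT8, KRT18, KRT19 and CDH1) lay above the signal filter (log2 6.03 or a signal of 65.5, which is the median probe set), and so did PAX8, ERBB2 and MSLN of 5 ovarian carcinoma genes. WT1 and MUC16 lay below it, although the label names a serous cancer. Of cell types rich in caveolae, 1 of 5 fibroblast genes (COL1A1), 1 of 5 endothelial genes (PECAM1), 1 of 5 adipocyte genes (CIDEC) and 0 of 5 muscle genes passed. From the separate immune list, 0 of 3 genes with a probe set of their own passed. Summed signals of the endothelial list ran from 100 to 740 on control and from 79 to 581 on miR21 arrays, and those of the adipocyte list from 100 to 382 and from 186 to 454. The fibroblast list ran from 264 to 896 and from 175 to 1077, the muscle list from 63 to 266 and from 88 to 116, and the immune list from 60 to 201 and from 20 to 123. The epithelial sums ran from 28854 to 61404 and from 33104 to 46748, and the ovarian ones from 21655 to 33006 and from 26467 to 41555. Among single marker genes, CDH1 was higher without overlap (differences of 0.88, 0.37 and 0.21 in numbers 1, 2 and 3). MSLN was lower without overlap (-0.93, -0.47 and -0.12). Of all genes, 3.38% were higher and 3.27% lower without overlap. The other epithelial genes did not all share the direction of CDH1. EPCAM was higher in all 3 numbers with overlapping groups, and KRT18 went both ways. KRT19 (-0.41, -0.18 and -0.42) and KRT8 (-0.13, -0.03 and -0.53) were lower in all 3. PAX8 and ERBB2 went both ways. CIDEC, a lipid droplet gene, was higher in all 3 numbers with overlapping groups (0.79, 1.52 and 0.30). CDH1, MSLN and CIDEC did not pass limma with or without the block. The part of these lists and genes in the results was not tested. Replicate 1 stood apart in both groups, with median signals of 125.4 and 117 against 55.2 to 61.8 on the other arrays, and its arrays lay apart on the first principal component (65.2% of the variance).

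CAV2 was higher with miR21 on all 3 of its probe sets and in all 3 replicate numbers, while CAV1 and CAVIN1 were lower on all of theirs. The signal of the CAV2 probe set of highest mean was 2.48-fold higher (95% interval 1.98 to 3.10 with the replicate number as a block). That of CAVIN1 was 1.83-fold lower. Without the block, which is the planned fit, the 95% intervals on the log2 scale were wider. They ran from 0.63 to 1.99 for CAV2 and from -1.66 to -0.08 for CAVIN1, and those of CAV1, CAVIN3, EHD2 and PACSIN2 included 0. CAV1 was 1.20-fold lower. CAVIN3 and PACSIN2 were lower in numbers 1 and 2 and higher in number 3, and EHD2 differed by less than 0.08 on the log2 scale in each number. On their brightest probe sets, the mean log2 differences of the 5 partners all lay below 0, although that of EHD2 was only -0.001. Under other settings PACSIN2 came to 0 on rounding (without miR21 replicate 1), and CAV1 and EHD2 reached values above 0. CAV1 did so at 0.01 without miR21 replicate 2, a fit that keeps number 2 in the control group only. EHD2 did so under 4 settings of all arrays (0.10 with arrays centred on their median, 0.01 after quantile normalization, 0.14 with the mean of its probe sets and 0.04 with array weights). Leaving out a single array brought it to 0.07 (control 1), 0.03 (control 3) and 0.11 (miR21 2), and it stood at 0.02 in the block fits without number 2 or number 3.

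**Figure D1:**
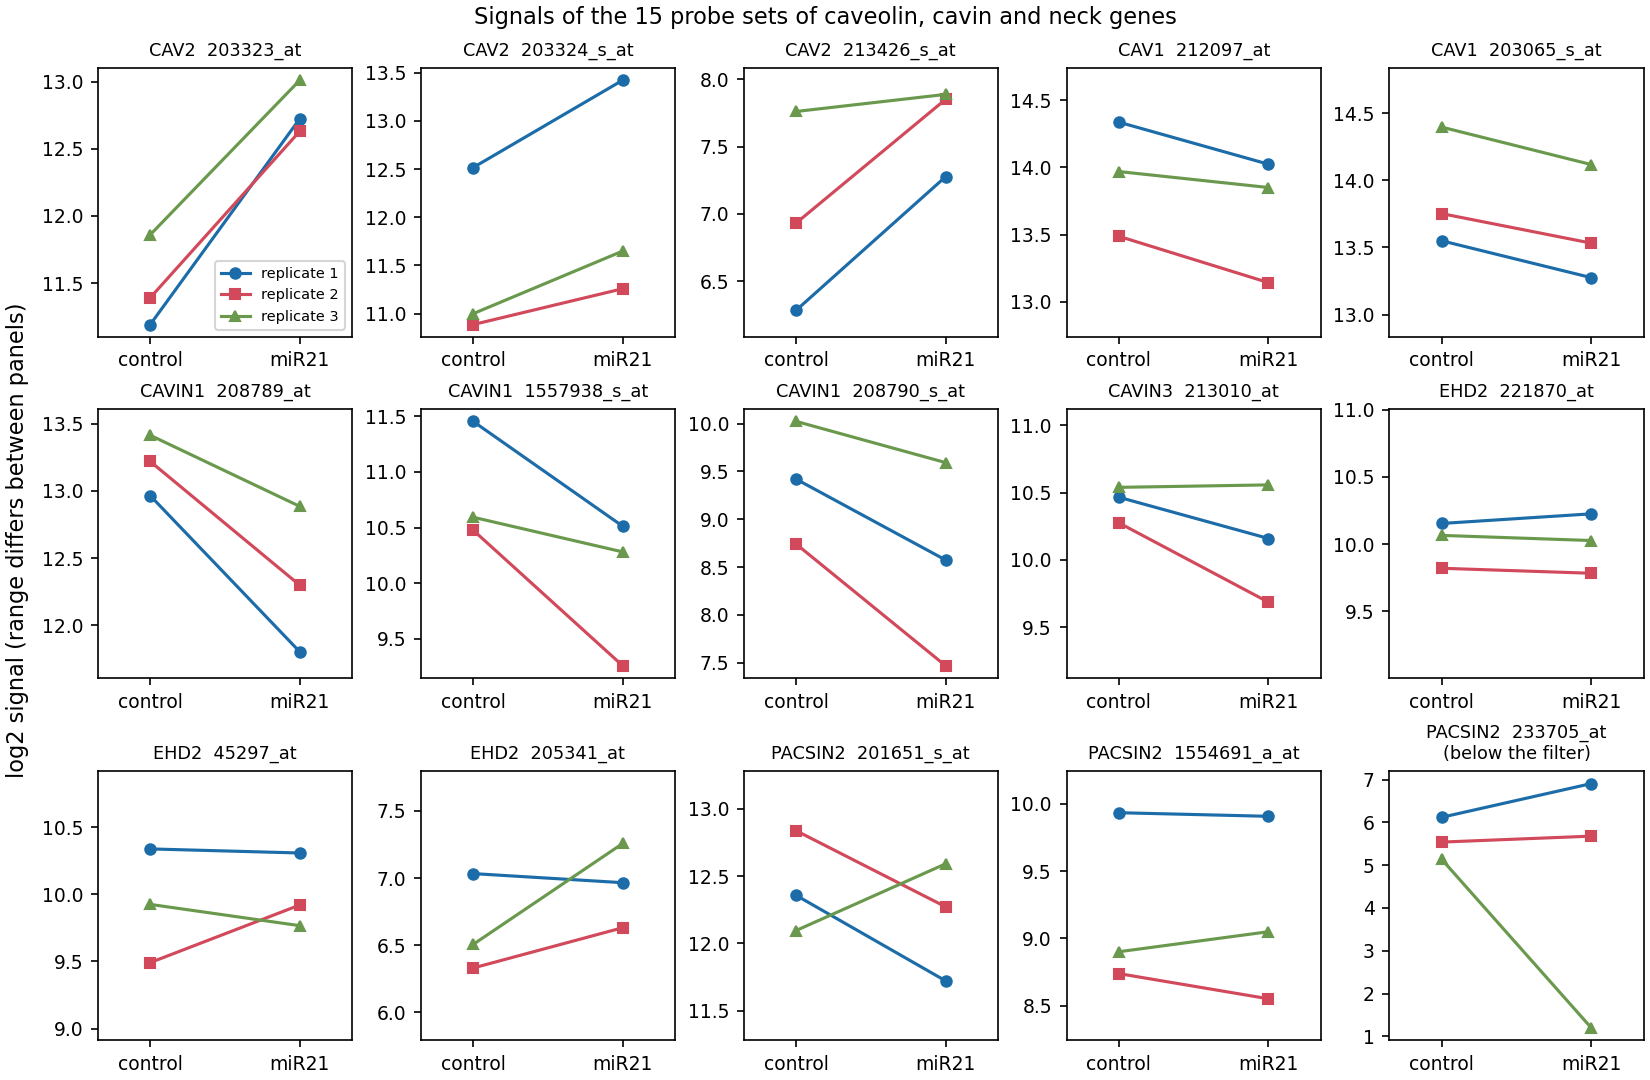
Log2 signals of the 15 probe sets on control and miR21 arrays, with a line joining the arrays of the same replicate number; the vertical range differs between panels. All lines of the 3 CAV2 probe sets go up and all lines of the 2 CAV1 and 3 CAVIN1 probe sets go down, while EHD2 and PACSIN2 lines go both ways.

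CAV2 was read by 3 probe sets, all above the filter. The brightest, 203323_at, had signals of 2337, 2684 and 3716 on control arrays 1, 2 and 3 and of 6767, 6344 and 8255 on miR21 arrays 1, 2 and 3. Every miR21 array lay above every control array, by log2 differences of 1.53, 1.24 and 1.15 within numbers 1, 2 and 3. The mean log2 difference was 1.31 (SE 0.29, adjusted p = 0.9999 in limma over all 12206 genes tested). With the replicate block, limma gave SE 0.14 and adjusted p = 0.0553.

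The other CAV2 probe sets showed the same direction and smaller differences. Probe set 203324_s_at had signals of 5853, 1891 and 2045 on control arrays and of 10978, 2448 and 3210 on miR21 arrays. Its groups overlapped, because both arrays of replicate 1 were far above the others, and its differences were 0.91, 0.37 and 0.65 (mean 0.64). Probe set 213426_s_at was dimmer, with 77.8, 122 and 217 on control and 155, 231 and 237 on miR21 arrays. Its differences were 1.00, 0.92 and 0.13 (mean 0.68), so that number 3 differed least. The mean of the 3 probe sets differed by 0.88.

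CAV1, the structural caveolin, was read by 2 probe sets. Probe set 212097_at had signals of 20677, 11478 and 16028 on control arrays and of 16645, 9039 and 14761 on miR21 arrays. The groups overlapped, and the miR21 array was the lower one in each number, by -0.31, -0.34 and -0.12. Probe set 203065_s_at had 11988, 13792 and 21546 on control and 9913, 11844 and 17761 on miR21 arrays, with differences of -0.27, -0.22 and -0.28. Both means were -0.26. For the first, limma gave SE 0.35 and adjusted p = 0.9999 without the block, and SE 0.14 and adjusted p = 0.325 with it. The 95% interval with the block ran from -0.58 to 0.06 and so includes 0. Leaving out miR21 replicate 2 alone gave a difference of 0.01, and leaving out control replicate 1 alone gave -0.06. Each of these fits keeps that replicate number in 1 group only. With both arrays of number 1, 2 or 3 left out, the difference was -0.23, -0.22 and -0.33.

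The 2 CAV1 probe sets disagreed on the replicates, not on the precursors. Replicate 1 was the brightest of its group on 212097_at and the dimmest on 203065_s_at. The same held for CAV2, where replicate 1 was the brightest of its group on 203324_s_at and, among control arrays, the dimmest on 203323_at.

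CAVIN1, the coat protein gene, was lower with miR21 on 3 of 3 probe sets and in every number. Probe set 208789_at had signals of 7992, 9535 and 10912 on control arrays and of 3572, 5035 and 7562 on miR21 arrays. The groups did not overlap, although the highest miR21 array (7562) lay just under the lowest control array (7992). Its differences were -1.16, -0.92 and -0.53 (mean -0.87, SE 0.34, adjusted p = 0.9999 in limma, and SE 0.16, adjusted p = 0.0927 with the block). Probe set 1557938_s_at had 2806, 1426 and 1545 on control and 1461, 613 and 1245 on miR21 arrays, with a mean difference of -0.82. The third, 208790_s_at, had 685, 428 and 1041 against 381, 177 and 772, with a mean of -0.85. The 3 means lay within 0.05 of each other.

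CAVIN3, the other coat gene, has 1 probe set on the array, 213010_at. Its signals were 1414, 1239 and 1488 on control and 1143, 823 and 1507 on miR21 arrays. The difference was -0.31 in number 1, -0.59 in number 2 and 0.02 in number 3, so only the first and second numbers were lower. The mean was -0.29 (95% interval with the block -0.69 to 0.10, adjusted p = 0.368 in limma with the block).

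EHD2, the neck ATPase gene, had the smallest difference of the 6. Its brightest probe set, 221870_at, had signals of 1139, 904 and 1071 on control and of 1197, 881 and 1043 on miR21 arrays. Within numbers 1, 2 and 3 it differed by 0.07, -0.04 and -0.04, and the mean difference was -0.0010. The 95% interval with the block ran from -0.35 to 0.35. Probe set 45297_at differed by -0.03, 0.43 and -0.16 and the dim 205341_at by -0.07, 0.30 and 0.75.

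PACSIN2, the F-BAR gene, went both ways. Probe set 201651_s_at had signals of 5247, 7322 and 4374 on control and of 3375, 4945 and 6171 on miR21 arrays. The differences were -0.64, -0.57 and 0.50, with a mean of -0.24 (95% interval with the block -0.77 to 0.30). Probe set 1554691_a_at differed by -0.03, -0.19 and 0.15. The third, 233705_at, lay below the filter, with 69.5, 46.5 and 35.1 on control and 120, 51.2 and 2.29 on miR21 arrays, so the last array sets its difference. It was the 1 member probe set of 15 that did not pass the filter.

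**Figure D2:**
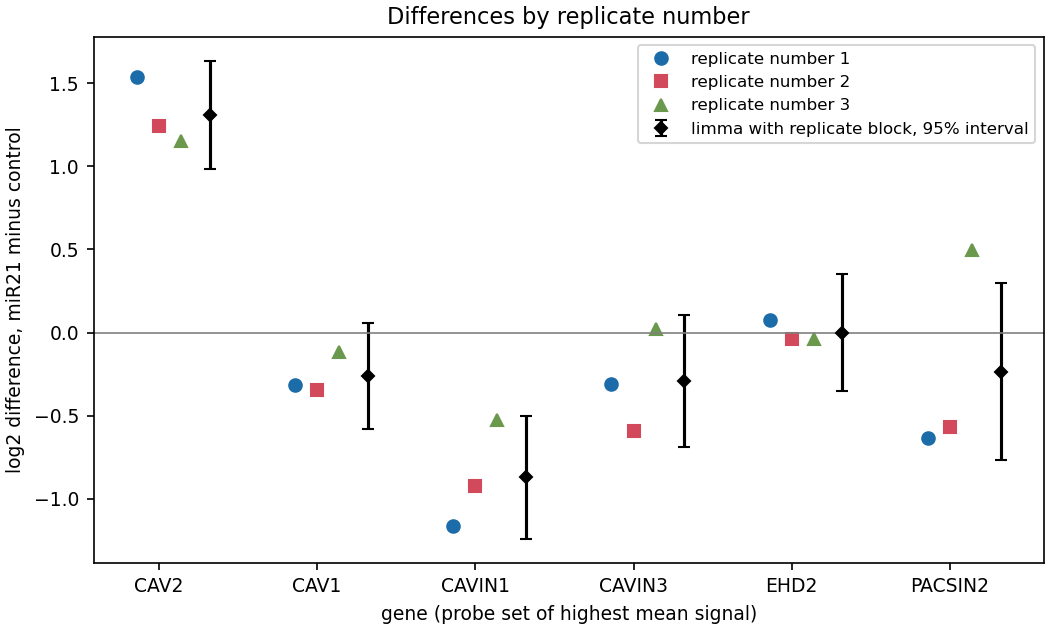
Log2 difference of miR21 minus control within replicate numbers 1, 2 and 3 for the brightest probe set of each gene, with the mean and its 95% interval from limma with the replicate block (diamonds). CAV2 lies between 1.15 and 1.53 in all numbers, CAVIN1 between -1.16 and -0.53, and the intervals of CAV1, CAVIN3, EHD2 and PACSIN2 include 0. Intervals from the fit without the block, not drawn, are wider for each gene.

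The contrast of CAV2 with its partners was taken on each array, as its log2 signal less that of the partners, so that a shift shared by the array drops out. Against the mean of the 5 partners, CAV2 gained 2.00, 1.73 and 1.19 log2 units from control to miR21 in numbers 1, 2 and 3, which is 1.64 ± 0.42 (SD, n = 3). It gained 1.57 ± 0.29 against CAV1, 2.18 ± 0.51 against CAVIN1 and 1.60 ± 0.41 against CAVIN3. Against the neck genes the gain was 1.31 ± 0.14 for EHD2 and 1.54 ± 0.79 for PACSIN2, each with SD over 3 numbers. PACSIN2 gave the widest spread, with 2.17, 1.81 and 0.65. The gain against CAV1, which lies beside CAV2, was 1.85, 1.59 and 1.27.

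The contrast was also taken for each pairing of a CAV2 probe set with a partner probe set above the filter. Of 99 values over the 3 numbers, which share arrays and probe sets, 94 were above 0. All 18 values against CAV1, all 27 against CAVIN1 and all 9 against CAVIN3 were above 0, with a lowest value of 0.11. The 5 values below 0 were against EHD2 (3) and PACSIN2 (2), down to -0.62, and 3 of these 5 came from the dim CAV2 probe set 213426_s_at and the other 2 from 203324_s_at.

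Read against all genes, the members' counts were as follows. Limma without a block called 0 of 6 member genes and 0 of 12206 in all (0%) at an adjusted p under 0.05, and 2 members had an unadjusted p under 0.05, as had 2.44% of all genes. With the replicate block it called 0 members and 0.0328% of all genes, and 2 members, CAV2 and CAVIN1, had an unadjusted p under 0.05, against 20.1% of all. CAV2 had the fifth smallest p of the block fit, and the 4 genes before it were the 4 called. Over the 22755 probe sets tested, limma called 0 of the 14 member probe sets above the filter and 0% of all, with or without the block, and the CAV2 probe set 203323_at had an adjusted p of 0.0715 with the block.

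The groups did not overlap for 1 member that was higher, CAV2, as for 3.38% of all genes, and for 1 that was lower, CAVIN1, as for 3.27%. In all 3 numbers 1 member gene was higher, as were 20.3% of all genes, and 2 were lower, as were 20.9%. By probe set the 3 of CAV2 were higher in all numbers, against 19.1% of all probe sets, and the 5 of CAV1 and CAVIN1 were lower, against 21.0%. A group mean over 1 log2 unit higher was found for 1 member and 1.83% of all genes, and CAV2 was also over 1 log2 unit higher in each of the 3 numbers, as were 0.156%. The median log2 difference of the 6 members was -0.25, and that of all genes tested was -0.01. Since the members were put together with these differences known, the shares only give the background.

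**Figure D3:**
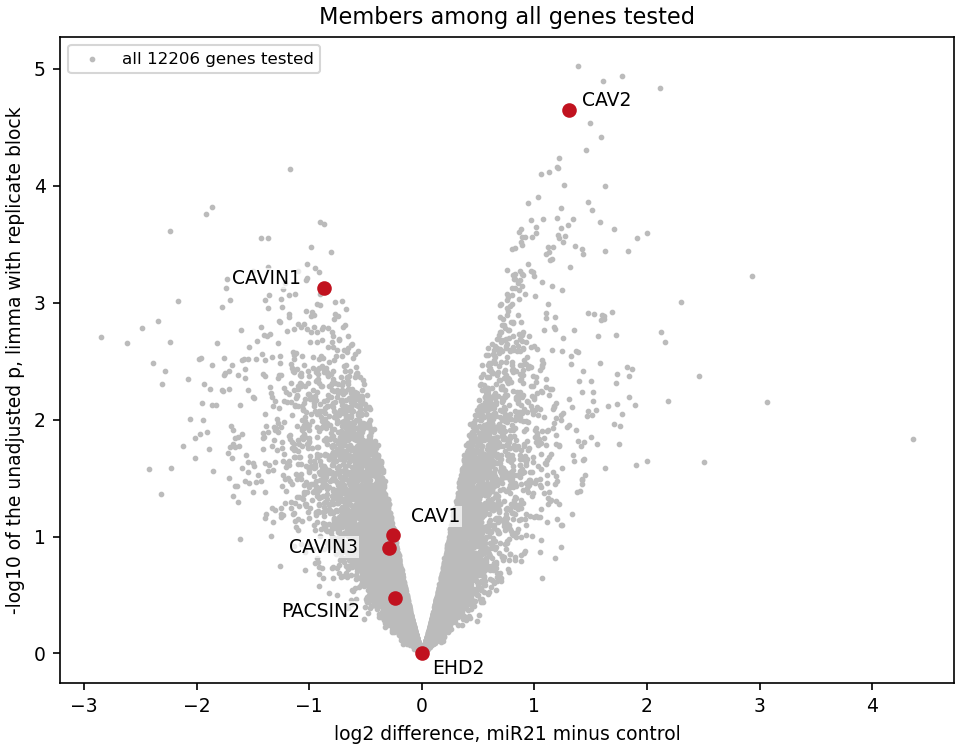
Log2 difference (horizontal) against the -log10 of the unadjusted p from limma with the replicate block (vertical) for all 12206 genes tested (grey) and the 6 members (red). CAV2 stands at a difference of 1.31 with the fifth smallest p, CAVIN1 at -0.87, and the other members lie among the many genes with small differences.

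The rank of CAV2 was highest in number 3, where CAVIN1, CAVIN3 and the brightest CAV1 probe set differed less than in numbers 1 and 2. The other CAV1 probe set, 203065_s_at, did not (-0.27, -0.22 and -0.28). Among 12206 genes the difference of CAV2 ranked 171 from the top in number 1, 361 in number 2 and 128 in number 3. CAVIN1 ranked 511, 1067 and 815 from the bottom. CAV1 ranked 3427, 3409 and 4152 from the bottom, well inside the bulk of genes. When a replicate number was dropped from the block fit, CAV2 differed by 1.20 without number 1, 1.34 without number 2 and 1.39 without number 3. These fits were added once values were known, and only 2 pairs with 1 degree of freedom remain in each. The adjusted p of CAV2 in limma with the block was 0.0164 without number 1, in a fit that called 0.483% of genes, and 0.592 without number 2, in one that called 0%. Without number 3 the fit called 32.8% of genes, among them CAV2, CAVIN1 (-1.04), CAVIN3 (-0.45) and PACSIN2 (-0.60).

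Of the 6 tested genes around the pair on chromosome 7, TES, MET and FOXP2 were higher with miR21 in all 3 numbers, and MDFIC, CAPZA2 and ST7-AS1 went both ways. Of all genes, 20.3% were higher in all 3 numbers. No test compared the 6 neighbours with CAV2. TES, which encodes the LIM protein testin, is the nearest tested gene before CAV2 and differed by 0.84, 0.70 and 0.13 in numbers 1, 2 and 3. Its signals were 6406, 1621 and 1169 on control and 11480, 2636 and 1281 on miR21 arrays, with replicate 1 far above the others in both groups. MET, the hepatocyte growth factor receptor gene after CAV1, differed by 0.17, 0.01 and 0.33, and the means of its 3 tested probe sets lay from -0.17 to 0.17. CAPZA2, an actin capping gene, differed by 0.08, -0.21 and -0.23. Farther out, FOXP2, a forkhead transcription factor gene, had signals of 64.7, 129 and 125 on control and of 191, 227 and 138 on miR21 arrays. Its groups did not overlap, and 3.38% of all genes were likewise higher without overlap. The differences of FOXP2 were 1.56, 0.81 and 0.14, the first of them above that of CAV2 in number 1. The mean was 0.84 (0.51 without control replicate 1), and another of its probe sets lay at -0.80. MDFIC differed by -0.50 as a mean and the antisense transcript gene ST7-AS1 by -0.34. None of these 6 passed limma with or without the block. With the block TES (unadjusted p = 0.0127, adjusted p = 0.162 in limma) and FOXP2 (unadjusted p = 0.0467, adjusted p = 0.244) had unadjusted values under 0.05, as had 20.1% of all genes.

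**Figure D4:**
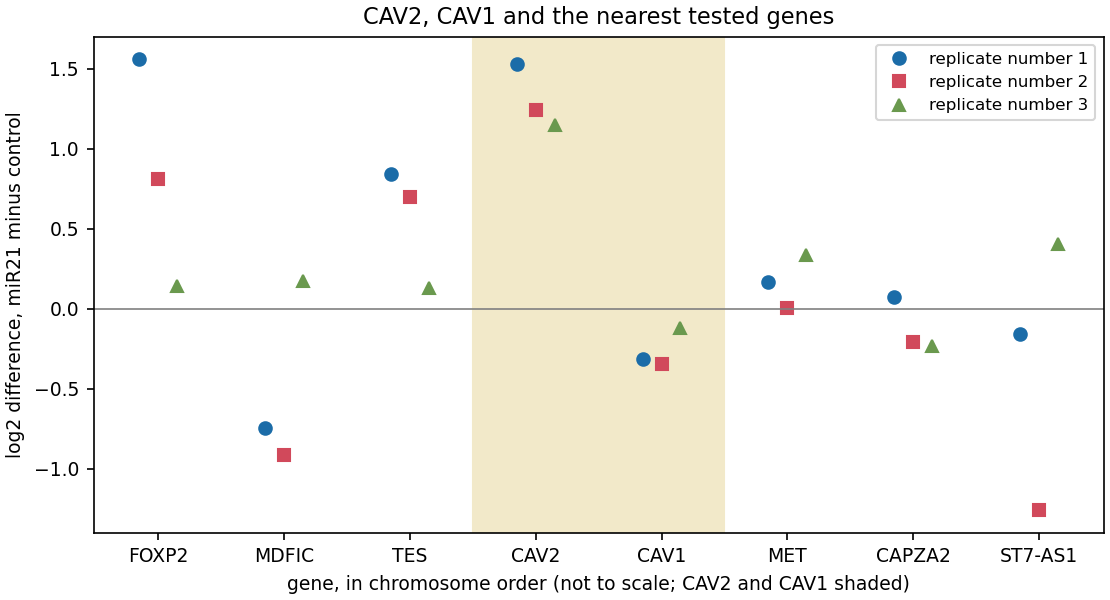
Log2 difference of miR21 minus control within each replicate number for CAV2, CAV1 (shaded) and the 3 nearest tested genes on either side, in chromosome order and not to scale. CAV2 lies above 1.1 in all 3 numbers and CAV1 below 0. FOXP2 lies between 0.14 and 1.56, TES between 0.13 and 0.84, and MET and CAPZA2 between -0.23 and 0.33.

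Other genes of the caveola coat and neck were measured for 8 of 11 listed genes, with a median difference of -0.04. In limma 0 passed in either direction, with or without the block, 1 had an unadjusted p under 0.05 in each fit, and 2 were lower and 0 higher in all 3 numbers. Over all genes 2.44% without and 20.1% with the block had an unadjusted p under 0.05. In all 3 numbers 20.3% of all genes were higher and 20.9% lower. Without overlap 3.38% were higher and 3.27% lower. These shares are the background for this list and each list below. EHD1, the endocytic recycling relative of EHD2, had signals of 841, 1050 and 1011 on control and of 370, 469 and 605 on miR21 arrays. The groups did not overlap, with a mean log2 difference of -1.03 (adjusted p = 0.0869 with the block in limma), and its 5 probe sets ranged from -1.19 to -0.50. CAVIN2, a coat gene that shapes caveolae in endothelium, differed by -2.48, -1.33 and 1.04 and so changed sign in number 3. Muscle CAV3 and the neuronal PACSIN1 lay below the filter.

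Lists of other membrane coats showed no called gene either. Of 14 clathrin coat genes (of 15 listed; median 0.04), 4 were higher and 3 lower in all numbers and 0 passed limma in either fit. The heavy chain gene CLTC differed by -0.02, 0.14 and -0.12. Of smallest p without the block were the adaptor genes AP2A2 (0.44) and AP2B1 (0.28, with another probe set at -1.04), although 0 of the 14 had an unadjusted p under 0.05 in that fit. In the block fit 3 had one, the scaffold gene ITSN1 (-0.65), AP2A2 and the adaptor gene EPS15 (0.37), which differed by 0.36, 0.38 and 0.36 in numbers 1, 2 and 3.

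The 6 flotillin and related genes had a median of -0.05, with 2 higher and 1 lower in all numbers and 0 past limma. Of these 1 without and 3 with the block had an unadjusted p under 0.05. ERLIN2, a cholesterol-binding protein gene of the endoplasmic reticulum, had signals of 1000, 725 and 558 on control and of 2534, 2572 and 1287 on miR21 arrays. All miR21 arrays lay above all control arrays, with a mean of 1.46 (adjusted p = 0.0686 with the block in limma). Its other probe set above the filter lay at 0.94, and the mean of its 3 probe sets, of which 2 passed the filter, at 0.71. STOML1 differed by -0.71, without overlap, with another probe set at -0.33. The mean of its 3 probe sets, of which 2 passed the filter, lay at -0.28. FLOT1 (-0.10) and FLOT2 (-0.28), the flotillins themselves, had overlapping groups.

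Among 8 of 9 genes for caveolin kinases and signalling proteins bound by caveolin the median was 0.25, with 2 higher and 0 lower in all numbers. None passed limma in either fit, and 0 without and 3 with the block had an unadjusted p under 0.05, against 2.44% and 20.1% of all genes. The 3 were TGFBR1, CTNNB1 and FYN. TGFBR1, a TGF-beta receptor gene, differed by 1.07, 0.41 and 0.90 in overlapping groups (mean 0.79). CTNNB1, the beta-catenin gene, differed by 0.58 without overlap (another probe set -0.04, mean of probe sets 0.28). FYN, a kinase that can phosphorylate caveolin-1, differed by 1.32, 1.12 and -0.12, with a mean of 0.77 that ran from 0.45 to 1.42 with 1 array left out. SRC differed by 0.29 and EGFR by 0.03. Cholesterol and sphingomyelin supply was measured for 7 of 8 genes (median 0.17), with 2 higher and 1 lower in all numbers, 0 past limma, and 1 without and 2 with the block at an unadjusted p under 0.05. The cholesterol exporter gene ABCA1 had signals of 627, 897 and 817 on control and of 1771, 2278 and 1132 on miR21 arrays. Its groups did not overlap, with a mean of 1.10 (adjusted p = 0.109 with the block in limma). Its other probe set above the filter lay at 0.70, and the mean of its 4 probe sets, of which 2 passed the filter, at 0.60 (SE 0.80). NPC1, which moves cholesterol out of lysosomes, differed by 1.20, 0.70 and 0.52 in overlapping groups. Its mean of 0.81 came to 0.34 with the mean of its 4 probe sets (2 above the filter) and 0.37 with array weights. It was 0.21 without control replicate 1 alone and 0.61 without both arrays of number 1.

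The genes whose 6 log2 signals followed CAV2 most closely, outside the members, were LOC100507634 (Pearson r = 0.997), the kinase gene TAOK3 (r = 0.996) and ZFP36L2, an mRNA decay factor gene (r = 0.990), each with a Spearman rho of 1. Over these 6 arrays, which share replicate levels, 46 of 12200 genes (0.377%) had r over 0.9 with CAV2. The likeness is in shape and not in size, since TAOK3 differed by 0.29 and ZFP36L2 by 0.48, against 1.02 for LOC100507634. With CAV1 the closest were ETFBKMT (r = 0.996), SAMD1 (r = 0.992) and RFWD3 (r = 0.990), each with a rho of 1 as well, and 148 genes (1.21%) had r over 0.9. These 3 differed by -0.40, -0.50 and -0.45.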

How the data were processed

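Gene expression of 6 SKOV3 samples was read on U133 Plus 2.0 arrays from biotin-labelled amplified RNA, per the labels' protocols. The deposited signal intensity values came from MAS5, per the submitters' processing notes, with no version or settings stated. They are linear and positive. Each array has a mean of 500.1 once 2% is trimmed at either end, which hides any shift common to most genes. The number of arrays limits the precision.

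Log2 values were compared in R 4.3.3 with limma 3.58.1 (a variance trend in eBayes, Benjamini-Hochberg adjustment over all features, threshold 0.05). A gene was read by its brightest probe set on average among those naming it alone, at or above the median of all probe sets, which kept 12206 of 19775 genes. All 15 member probe sets matched RefSeq by Entrez identifier. Replicate numbers in the titles were taken as pairs because deviations from the group means correlated at 0.899, 0.638 and 0.635 for numbers 1, 2 and 3. Unlike numbers gave 0.411 (control 3 with miR21 2) and 0.283 (control 2 with miR21 3). Numbers 2 and 3 were therefore less clearly told apart. Number 1 correlated negatively with both other numbers. The planned fit has no block. Named genes were all members, the 2 of smallest p per list in the planned fit, the 3 nearest tested neighbours on each side, and the 3 genes most like CAV2 and CAV1. CLTC, FLOT1, FLOT2, SRC, EGFR, TGFBR1, ITSN1, EPS15, CDH1, MSLN and CIDEC fall outside this rule and were named once their values had been seen. The directions of EPCAM, KRT8, KRT18, KRT19, PAX8 and ERBB2 were likewise added after that. Members and lists were chosen with earlier results of these data known. Of the steps, only the limma fits with and without the block were tested on simulated data. Alternatives were other normalizations, log2 of the signal plus 16, other filters, no trend, array weights, the mean of probe sets, the block, and arrays left out. The mean of probe sets takes in all that name the gene alone, also those below the filter.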

Additional observations from a re-analysis of the deposited data

How the results depend on the processing

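The count of called genes was 0 in each fit of all arrays or with 1 array left out, except the replicate block, with 4; with the block and a number left out (chosen after seeing the data) it was 59 without number 1, 0 without number 2 and 4004 without number 3. The count of called probe sets was 0 in all 10 alternatives, the block among them. CAV2 lay between 1.16 and 1.50 with 1 array left out, and at 0.88 with the mean of probe sets. Its contrast with the partners lay between 1.47 (without control replicate 1) and 1.82 (without control replicate 3), and at 1.21 with the mean of probe sets. With 1 array left out CAVIN1 lay between -1.15 and -0.61, CAV1 between -0.48 (without control replicate 2) and 0.01 (without miR21 replicate 2), CAVIN3 between -0.51 and -0.07, EHD2 between -0.11 and 0.11 and PACSIN2 between -0.43 and 0. EHD2 was 0.10 with median centring, which moves all genes by about that much (median 0.09), and 0.14 with the mean of probe sets. The block changed no call of a member or listed gene. Only fits that dropped a replicate number called a member, and otherwise CAV2 came nearest, with an adjusted p of 0.0553 with the block and 0.151 with array weights. AP2B1 (-0.38), MET (-0.32) and CAPZA2 (0.35) changed sign with the mean of probe sets, and ST7-AS1 (0.12) with the block without number 2. For MET and CAPZA2 that mean takes in probe sets below the filter. Those above it lay from -0.17 to 0.17 for MET and from -0.12 to -0.05 for CAPZA2. With 1 array left out TES lay between -0.32 and 1.30, MET between -0.32 and 0.66, CAPZA2 between -0.63 and 0.29 and ST7-AS1 between -1 and 0.04. Such a fit keeps that replicate number in 1 group only. Without both arrays of number 1, 2 or 3, TES lay at 0.42, 0.49 and 0.77 and MET at 0.17, 0.25 and 0.09. CAPZA2 then lay at -0.22, -0.08 and -0.06, and ST7-AS1 at -0.43, 0.12 and -0.71. The cause was not tested.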
